A study of Homo sapiens with 5 samples.

Results

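S100A7, S100A8, S100A9 and S100P were followed through 5 single-cell RNA libraries of KYSE30-Luc-GFP, an established human esophageal squamous cell carcinoma (ESCC) line that carries luciferase and green fluorescent protein (GFP). The 4 genes were chosen by name, out of the 33538 genes that each deposited matrix lists, and all 4 are in every matrix. The parental library is the line in culture, and the other 4 are GFP-positive cells sorted from the lungs of NOD SCID mice (NOD.CB17-Prkdc scid/J) that had received the line through a tail vein. Lungs were taken early, at 6 h and 48 h, or late, at 2 and 4 months. The mice were 4 to 5 weeks old at injection, of either sex, and lack functional T and B cells but keep neutrophils and macrophages. Mouse cells were depleted with magnetic beads before sorting, and all 5 libraries hold the same line with the same luciferase and GFP label. By the methods of the study 3 mice were pooled at 6 h, 16 at 48 h and 6 at 2 months, the 4-month library is from 1 mouse, and no barcode says which mouse its cell came from. Each timepoint was therefore 1 sample without a replicate, no test was run, and every interval below covers counting error at 95% and nothing else. Time, mouse and library cannot be told apart.

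S100 proteins are small calcium-binding proteins with EF-hand motifs that usually work as dimers. S100A8 and S100A9 pair to form calprotectin, which binds zinc and manganese, is held in large amounts by neutrophils and monocytes, and is released as a danger signal that TLR4 and the receptor RAGE (the product of AGER) can sense. Epidermis keeps S100A7 (psoriasin, an antimicrobial protein), S100A8 and S100A9 low at rest. It raises them in wounds and in inflammation, in which IL-17 and related cytokines are known inducers. S100P was named after placenta, is found in many carcinomas, and also binds RAGE.

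S100A7, S100A8 and S100A9 lie within 102.8 kb of the epidermal differentiation region of chromosome 1 (GRCh38, GENCODE 44), and S100P is alone on chromosome 4. S100A9 (ENSG00000163220) spans chr1:153357854-153361023 on the plus strand, S100A8 (ENSG00000143546) chr1:153390032-153391073 on the minus strand, and S100A7 (ENSG00000143556) chr1:153457744-153460651 on the minus strand. S100P (ENSG00000163993) spans chr4:6693878-6697170 on the plus strand. All 4 are protein-coding, with 3 exons in the canonical transcript of the chromosome 1 genes and 2 in that of S100P. Between S100A9 and S100A7 the matrices list 3 further genes, S100A12, S100A7A and the pseudogene S100A7L2. S100A7A (ENSG00000184330, chr1:153416520-153423222, plus strand) is a near copy of S100A7: 69 of the 437 different 50-base windows of the S100A7 transcripts (15.8%) also occur in S100A7A transcripts, so reads from those stretches cannot be assigned to 1 of the pair.

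The 250 bases before the annotated start of each gene, on the strand of the gene, are shown because 3 of the members appeared in the same libraries and the S100A7 copy stayed near 0. The sequences are from RefSeq (GRCh38.p14), all 5 genes matched by symbol (S100A8 has 3 starts in the table, and the one at the annotated gene end was used), and capitals mark TATAAA, the core promoter element.
S100A7: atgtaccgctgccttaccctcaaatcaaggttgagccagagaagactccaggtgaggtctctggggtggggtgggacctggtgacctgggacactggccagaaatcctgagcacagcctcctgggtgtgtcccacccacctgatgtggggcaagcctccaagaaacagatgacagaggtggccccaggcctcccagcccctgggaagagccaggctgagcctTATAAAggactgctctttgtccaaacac
S100A7A: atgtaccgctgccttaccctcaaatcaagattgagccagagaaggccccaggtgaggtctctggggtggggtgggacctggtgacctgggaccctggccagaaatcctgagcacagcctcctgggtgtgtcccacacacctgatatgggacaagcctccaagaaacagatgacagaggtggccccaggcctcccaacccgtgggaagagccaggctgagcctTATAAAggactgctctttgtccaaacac
S100A8: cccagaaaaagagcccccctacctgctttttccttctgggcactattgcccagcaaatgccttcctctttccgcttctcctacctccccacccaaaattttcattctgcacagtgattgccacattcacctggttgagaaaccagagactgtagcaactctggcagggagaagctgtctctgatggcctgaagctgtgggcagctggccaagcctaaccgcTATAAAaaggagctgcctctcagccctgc
S100A9: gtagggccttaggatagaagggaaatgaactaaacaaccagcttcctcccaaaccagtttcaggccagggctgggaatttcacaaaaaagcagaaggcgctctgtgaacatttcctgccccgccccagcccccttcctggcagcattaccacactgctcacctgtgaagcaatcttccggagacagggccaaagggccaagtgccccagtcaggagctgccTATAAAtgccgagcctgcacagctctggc
S100P: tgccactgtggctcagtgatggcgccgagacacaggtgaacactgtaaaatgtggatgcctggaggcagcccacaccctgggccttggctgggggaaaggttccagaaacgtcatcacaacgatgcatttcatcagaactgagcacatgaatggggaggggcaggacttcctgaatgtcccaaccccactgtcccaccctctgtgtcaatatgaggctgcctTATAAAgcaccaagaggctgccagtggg

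These windows are chr1:153460652-153460901 (S100A7), chr1:153416270-153416519 (S100A7A), chr1:153391074-153391323 (S100A8), chr1:153357604-153357853 (S100A9) and chr4:6693628-6693877 (S100P). TATAAA stood once in each window, with its leading base 28 bases before the start in S100A7, S100A7A and S100P and 29 bases before it in S100A8 and S100A9. Of 34943 windows of the same length before RefSeq starts, 10.8% held TATAAA on either strand. On the strand of the gene, 2.29% held it with all its bases 16 to 40 bases before the start. The S100A7 and S100A7A windows were identical at 241 of 250 positions (96.4%). S100A8 and S100A9, whose products pair, were identical at 60 of 250 (24.0%) without gaps. On both strands, 3 further patterns were searched, TGANTCA for AP-1 (in 6.59% of all windows), TTGCNNAA for C/EBP (9.06%) and TTCNNNGAA for STAT factors (6.56%), and these letters were in none of the 5 windows.

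Cells with 200 to 8000 genes, 1000 or more UMIs and no more than 15% of UMIs from mitochondrial genes were kept, and 19986 cells of 26712 barcodes remained, between 1149 cells at 48 h and 9059 in the parental library. A UMI (unique molecular identifier) marks 1 captured RNA molecule, so that 3′ UMI counts need no correction for gene length. The median cell held between 12979 UMIs (6 h) and 39076 UMIs (48 h), and the 2- and 4-month libraries were near the parental one in depth (21865, 27559 and 23014 UMIs). The kept cells of the libraries shared 198 of 19786 distinct barcodes, at most 62 between any pair. Without the cells of shared barcodes, S100A8 at 2 months was 168 CPM in place of 180 CPM, and no other level over 10 CPM moved by more than that proportion. The cells were checked against 12 squamous epithelial markers, in CPM (UMIs of a gene over all UMIs of the summed cells, scaled to a total of 1e6). The simple keratins KRT8 (342 to 4831 CPM) and KRT18 (1048 to 5646 CPM) were high in every library, but the squamous keratins were nearly absent in culture, with 1 UMI of KRT5, 10 of KRT14 and 100 of KRT17 in the parental library. TP63, the squamous lineage factor, was between 2.62 and 42.6 CPM.

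S100A7 was not detected in the parental library and was the most abundant of the 4 in the late lung libraries. Neither the parental nor the 48 h library had a UMI of it, the 6 h library had 7 UMIs in 6 cells, and the late libraries had 77423 (2 months) and 390053 (4 months). In CPM this was 0.215 (0.0865 to 0.443) at 6 h, and the late levels were 957 (950.5 to 964) and 3109 (3099 to 3119). The count of 0 allowed up to 0.0146 CPM in the parental library and up to 0.0641 CPM at 48 h.

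S100A8 had a single UMI (1) before 2 months, at 6 h, then 14598 UMIs at 2 months and 79473 at 4 months. The 6 h level was 0.0307 CPM (0.000778 to 0.171), and the late levels were 180 CPM (178 to 183) and 633 CPM (629 to 638). S100A9, its partner in calprotectin, had 1 UMI in culture, 3 UMIs in 1 cell at 6 h, none at 48 h, then 33089 UMIs at 2 months and 65603 in the last library. In CPM it stood at 0.00488 CPM (0.000124 to 0.0272), 0.0922 CPM (0.0190 to 0.269), 409 CPM (405 to 414) and 523 CPM (519 to 527) in the libraries with UMIs, in the order of time. For S100A7, S100A8 and S100A9 the 3 early libraries thus held at most 7 UMIs of a gene, and the 2 late ones at least 14598. For S100A8, no order among the parental, 6 h and 48 h values was detectable at this depth. For S100A9, the ratio of 6 h over culture was 18.9 with a counting interval from 1.52 to 992, and the 3 UMIs behind it were in a single cell.

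S100P had UMIs in all 5 libraries and kept to a lower level than the other 3 at 2 and 4 months. The culture had 62 UMIs of it, or 0.303 CPM (0.232 to 0.388). The 6 h library had 607 UMIs, or 18.7 CPM (17.2 to 20.2), and the 48 h library 124 UMIs, or 2.65 CPM (2.20 to 3.16). The late libraries had 2666 UMIs (2 months), or 32.96 CPM (31.7 to 34.2), and 3324 UMIs (4 months), or 26.5 CPM (25.6 to 27.4). From lowest to highest the order was parental, 48 h, 6 h, 4 months and 2 months, and no counting intervals of neighbours in this order overlapped.

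The step from culture to 6 h changed S100P among the members. It was 61.6 times higher at 6 h (47.4 to 81.4), or 3.92 on the log2 scale with 1 CPM added. The 2 libraries differ in cell class: the small class described below held 1289 of 9059 cells in culture and 1949 of 1957 at 6 h. In small-class cells alone S100P was at 0.812 CPM in culture and 17.96 CPM at 6 h, or 3.39 on the log2 scale. Over all cells, 17.2% of the 10852 genes with at least 5 CPM in either library were at least 2-fold higher on that scale. S100P was in place 114 from the top. The other 3 members were under 5 CPM in both libraries and were not called. S100P at 6 h rested on few cells: 2 cells with 175 and 140 UMIs held over 50% of its UMIs, and 75.5% were in the 20 cells highest for it. Without the 1% of cells highest for S100P in each library its level at 6 h was 4.63 CPM, under the minimum for a call. Those 2 cells had 25641 and 38307 UMIs, 2.78% and 4.02% mitochondrial UMIs, 119 and 581 UMIs of KRT8, 2 UMIs each of the marker lists of other cell types, and no UMI of the other 3 members.

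From 6 h to 48 h, S100P was 7.04 times lower (5.79 to 8.61), -2.43 on the log2 scale, which put it at place 13 from the bottom of 9605 genes. At this step, 1.42% of those genes were at least 2-fold lower. At 48 h, 3 cells held 50% of the S100P UMIs, with 35 UMIs in the highest. The fall was lost as a call without the 1% of cells highest for the gene, since S100P was then under 5 CPM in both libraries.

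From 48 h to 2 months all 4 members were at least 2-fold higher, at a step at which 12.2% of 10445 genes were. Against the 3 UMIs that a count of 0 allows in the 48 h library, S100A7 was at least 14927-fold higher, S100A9 at least 6380-fold and S100A8 at least 2814-fold. By log2 ratio with 1 CPM added, S100A7 was in place 1, S100A9 in place 2 and S100A8 in place 6 of the 10445 genes, ranks that use the CPM added because the 48 h counts are 0. S100P was 12.4-fold higher (10.4 to 15.01), in place 177. All 4 calls remained under each of the 9 other settings tried, among them the removal of the 1% of cells highest for each gene.

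From 2 to 4 months S100A7 was 3.25-fold higher (3.22 to 3.27) and S100A8 3.51-fold higher (3.45 to 3.57), at a step at which 3.03% of 10082 genes were at least 2-fold higher. On the log2 scale these were 1.70 and 1.81 over all cells. With only small-class cells taken from both libraries they were lower, at 1.24 and 1.43. S100A9 was 1.28-fold higher (1.26 to 1.30) and S100P was at 0.804 of its 2-month level (0.764 to 0.846), and neither passed the 2-fold limit. The S100A9 ratio turned with the cells compared: on the log2 scale it was 0.35 over all cells, -0.09 without the 1% of cells highest for S100A9, and -0.11 when only cells of the small parental class described below were taken from both libraries. The gap between the calprotectin partners also moved, with 44.1 UMIs of S100A8 for each 100 of S100A9 at 2 months and 121 at 4 months.

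The share of cells with at least 1 UMI differed less between the late libraries than the levels did. S100A7 was detected in 731 of 3322 cells at 2 months (22.0%, 20.6 to 23.5) and 1872 of 4499 at 4 months (41.6%, 40.2 to 43.1). S100A8 was detected in 20.95% (19.6 to 22.4) and 30.7% (29.4 to 32.1), S100A9 in 46.1% (44.4 to 47.9) and 46.9% (45.4 to 48.3), and S100P in 10.5% (9.45 to 11.6) and 9.76% (8.91 to 10.7). Of the 9059 cultured cells, 0.519% had S100P, against 6.39% of the 1957 cells at 6 h and 2.87% of the 1149 at 48 h. At 2 months cells positive for a member were shallower than negative ones, for S100A7 with a median of 19416 against 22712 UMIs, while at 4 months S100A9-positive cells were deeper (28773 against 25492 UMIs). Of the 731 S100A7-positive cells at 2 months, 695 were of the small class described below. The median of that class was 19195 UMIs, against 37892 in the large class.

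Depth differs between cells and libraries, so each cell was also thinned to 1000 UMIs, which left out no cell. The thinned shares at 2 and 4 months were 9.24% and 17.5% for S100A7, 6.26% and 10.5% for S100A8, 18.2% and 15.2% for S100A9, and 2.95% and 2.11% for S100P. S100A9 was thus found in fewer thinned cells at 4 months although its CPM was higher, and no order between the 2 whole libraries is read from its share. In cells of the small class described below, the S100A9 share was lower at 4 months by both measures. It was 55.7% at 2 months and 46.9% at 4 months from all UMIs, and 22.3% and 15.2% after thinning. The thinned S100P share was 1.12% at 6 h, 0.0870% at 48 h and 0.0773% in the parental library, where it rests on 22, 1 and 7 cells. For S100A7 and S100A8, 0 of 9059 parental cells had a UMI, which allows a share of up to 0.0331%, and 0 of 1149 cells at 48 h allows up to 0.261%.

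**Figure D1:**
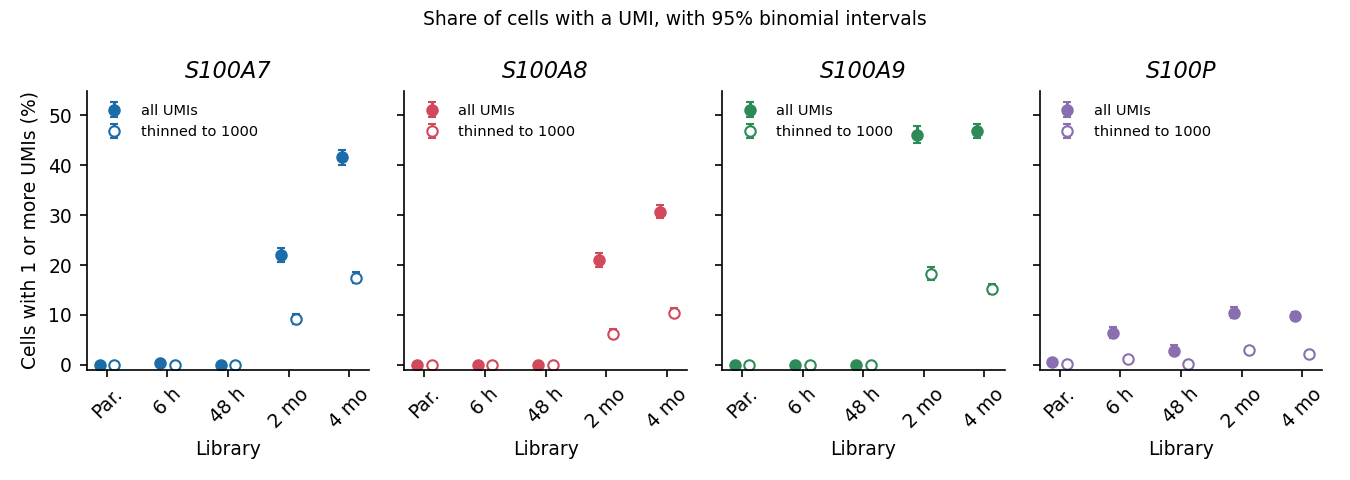
Share of cells with at least 1 UMI (y axis, percent) of each gene in the 5 libraries (x axis), from all UMIs (filled) and after thinning each cell to 1000 UMIs (open), with 95% binomial intervals. Over cells of both parental classes, S100A9 sits at 46.1% and 46.9% at 2 and 4 months, and at 18.2% and 15.2% after thinning, while S100A7 goes from 22.0% to 41.6%.

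Free RNA in droplets can give a UMI to a cell that does not express a gene. The line holds 2 classes of parental cells that can be told apart without any S100 gene, a small class (1289 cells) rich in KRT19, KRT7, AREG and CST6 UMIs and a large class (7762 cells) rich in CKB, UCHL1 and CSRP2 UMIs. At 2 months the small class held 2710 cells and the large class 612, which were deeper (a median of 37892 against 19195 UMIs). S100A7 was detected in 25.6% of the small-class cells and 5.88% of the large-class cells, S100A8 in 25.5% and 0.817%, S100A9 in 55.7% and 3.92%, and S100P in 12.6% and 1.14%. In CPM the small and large class stood at 1315 and 49.8 for S100A7, 235.1 and 42.2 for S100A8, 566 and 11.5 for S100A9, and 45.4 and 1.57 for S100P. The large-class UMIs came from a few cells: 1 cell held 957 of the 965 UMIs of S100A8, and 7 cells with at least 10 UMIs held all but 33 of the 1141 of S100A7. Between 93.4% (S100A8) and 99.2% (S100A9) of the 2-month UMIs of a member were in small-class cells. At 4 months 4493 of 4499 cells were of the small class, so the large class gives no background there, and the 19.8% of cells with 1 or 2 UMIs of S100A7 cannot be told apart from cells with free RNA.

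Most UMIs of the members sat in few cells. At 4 months S100A7 was at 100 or more UMIs in 374 cells (8.31%), at 10 to 99 in 323 cells (7.18%), at 3 to 9 in 283 (6.29%) and at 1 or 2 in 892 (19.8%). At 2 months the same classes held 106, 177, 131 and 317 cells. S100A9 was spread more widely at 2 months, with 551 cells (16.6%) at 10 to 99 UMIs and 69 (2.08%) above that. Of the UMIs of a gene, 50% were in 21 cells at 2 months and 52 cells at 4 months for S100A7, 16 and 33 cells for S100A8, 105 and 53 cells for S100A9, and 27 and 31 cells for S100P. The 10% of cells highest for a gene held 99.1% of the S100A7 UMIs at 2 months and 97.7% at 4 months, against 77.3% and 88.4% for S100A9.

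In single cells the members reached a large part of the measured RNA. The highest cell had 4480 UMIs of S100A7 at 2 months and 5988 at 4 months, 1311 and 3044 of S100A8, 1198 and 2250 of S100A9, and 344 and 134 of S100P. S100A7 alone made up 35.2% of the UMIs of a cell at 2 months and 28.2% of one at 4 months, and the 4 genes together up to 40.8% and 46.0%. They passed 10% of the UMIs in 24 cells at 2 months and 75 cells at 4 months. Over whole libraries the 4 genes made up 0.158% of all UMIs at 2 months and 0.429% at 4 months. Because CPM weights deep cells more, the mean of the CPM of single cells was also taken: it was 1873 and 4112 for S100A7, so that the ratio from 2 to 4 months fell to 1.13 on the log2 scale from 1.70.

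**Figure D2:**
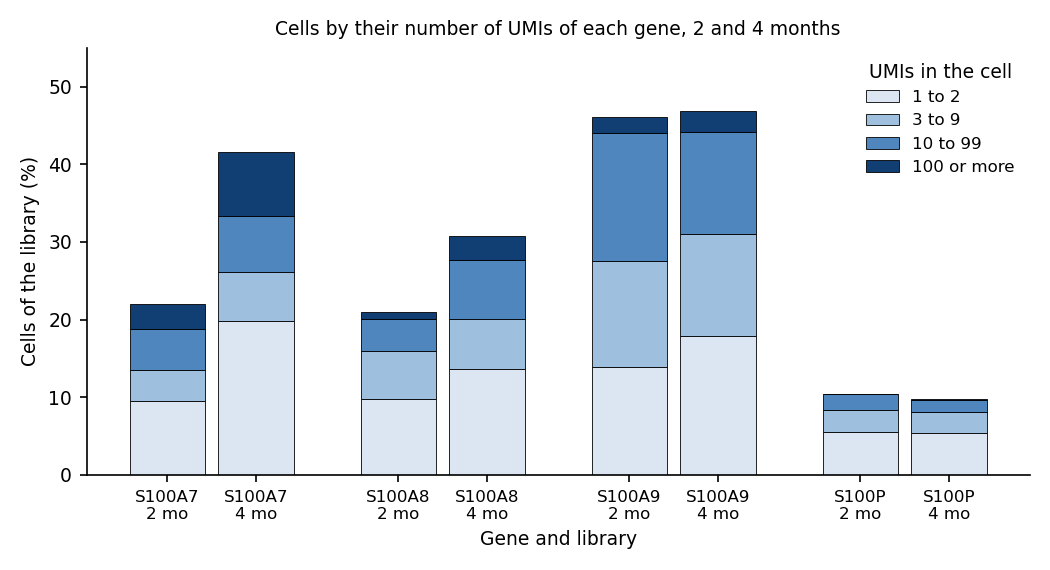
Share of the cells of a library (y axis, percent) with 1 to 2, 3 to 9, 10 to 99 and 100 or more UMIs of each gene at 2 and 4 months (x axis). Cells with 100 or more UMIs of S100A7 make up 3.19% at 2 months and 8.31% at 4 months, and those with 100 or more of S100P number 1 and 4.

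Cells positive for 1 member were more often positive for another than negative cells were. With all UMIs, 90.2% of the 696 S100A8-positive cells at 2 months also had S100A9, against 34.5% of S100A8-negative cells, and at 4 months 78.4% of 1382 did, against 32.9%. Within small-class cells at 2 months the contrast was smaller, at 90.2% against 43.9%. For S100A9 in S100A7-positive and S100A7-negative cells it was 75.4% against 48.9% there, and 72.5% against 38.7% over all 2-month cells. The thinned shares were not split by class. S100A9 had the wider reach of the pair, since 41.0% of S100A9-positive cells had S100A8 at 2 months and 51.4% at 4 months. After thinning to 1000 UMIs the share of S100A8-positive cells with S100A9 was 70.2% (146 of 208 cells, against 14.8% of negative cells) at 2 months and 54.6% (257 of 471, against 10.6%) at 4 months.

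S100A7 and S100A8 were the closest pair at 4 months by the thinned shares and by Pearson correlation, but not by the shares from all UMIs, where 67.9% of S100A8-positive cells had S100A7 and 78.4% had S100A9. In thinned cells, 46.6% of S100A8-positive cells had S100A7 at 2 months, against 6.74% of negative cells, and 74.7% did at 4 months, against 10.8%. S100P was less common: after thinning, 18.2% of S100A7-positive cells had S100P at 2 months (1.39% of negative cells) and 5.60% at 4 months (1.37%). In the other direction, 57.1% of the 98 thinned S100P-positive cells had S100A7 at 2 months and 46.3% of the 95 at 4 months. For every pair in both libraries, the share was higher in the positive than in the negative cells. A pair higher in 1 direction is always higher in the other, so the reverse is not a separate result.

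**Figure D3:**
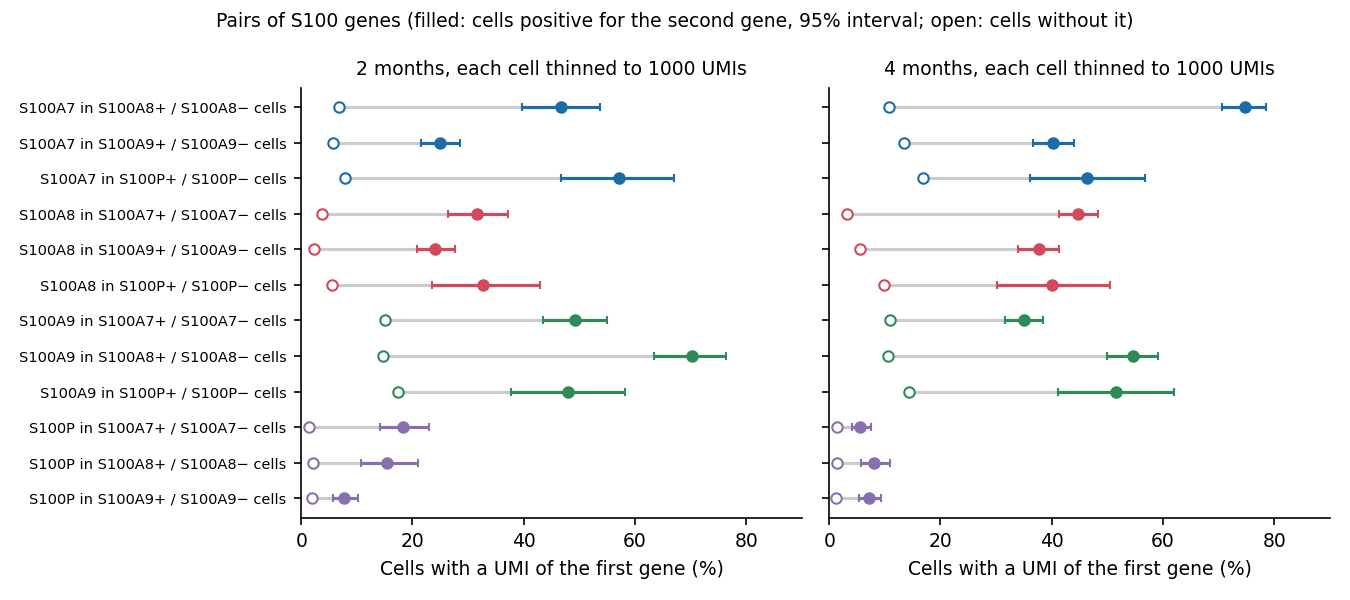
For each ordered pair of genes, the share of cells with a UMI of the first gene (x axis, percent) among cells positive (filled, 95% interval) and negative (open) for the second gene, at 2 months (left) and 4 months (right), each cell thinned to 1000 UMIs. The filled point is to the right of the open one for every pair, by most for S100A7 in S100A8-positive cells at 4 months (74.7% against 10.8%) and S100A9 in S100A8-positive cells at 2 months (70.2% against 14.8%).

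Pearson correlations of log-scaled UMIs per 10000 were taken over 3322 cells at 2 months and 4499 at 4 months that share 1 library each and its depth. They were 0.59 and 0.77 for S100A7 with S100A8, 0.65 and 0.68 for S100A8 with S100A9, and 0.44 and 0.49 for S100A7 with S100A9. With S100P they were 0.50 and 0.25 for S100A7, above S100A7 with S100A9 at 2 months but not at 4 months, 0.38 and 0.32 for S100A8, and 0.29 and 0.35 for S100A9. Within small-class cells alone the 2-month values were 0.58, 0.64 and 0.41 for the first 3 pairs. At 2 months 45.1% of the cells had none of the 4 genes, 26.9% had 1, 14.9% had 2, 9.78% had 3 and 3.402% (113 cells) had all 4. At 4 months 31.9% had none, 30.5% had 1, 18.2% had 2, 15.3% had 3 and 4.00% (180 cells) had all 4. The largest single combination was S100A9 alone, in 661 cells at 2 months and 631 at 4 months. At 4 months S100A7, S100A8 and S100A9 together followed, in 591 cells (233 at 2 months), and then S100A7 alone, in 550 cells (150 at 2 months).

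The other members were higher in cells with more S100A7, except S100A8 in the highest S100A7 class at 2 months. At 4 months, cells with 0, 1 to 9, 10 to 99, 100 to under 1000 and 1000 or more S100A7 UMIs stood at 22.7, 84.1, 617, 2883 and 17555 CPM for S100A8 and at 138, 234.99, 941, 1880 and 9454 CPM for S100A9. At 2 months S100A8 went from 27.1 CPM at 0 S100A7 UMIs to 4926 CPM at 100 to under 1000 and was 4144 CPM in the 19 cells with 1000 or more. S100P went from 9.61 to 296 CPM over the same classes at 4 months and from 9.68 to 840 CPM at 2 months.

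Among 10759 genes found in at least 5% of the cells of both late libraries, a few followed the members most closely, with the 99th percentile of r between 0.163 and 0.245 over the 4 members and 2 libraries. For S100A7 these were TMEM45A (r of 0.61 at 2 months and 0.76 at 4 months), KRT23, a type I keratin (0.52 and 0.60), LY6G6C (0.41 and 0.59), CST6, the protease inhibitor cystatin M (0.39 and 0.57), and CRABP2, which carries retinoic acid (0.41 and 0.53). TMEM45A and KRT23 were also at the head of the list for S100A8 (0.46 and 0.64, and 0.44 and 0.54), which was followed further by LCN2, the iron-binding lipocalin 2 (0.35 and 0.57), CRABP2 and SLPI, a secreted protease inhibitor (0.44 and 0.39). For S100A9 the list was SLPI (0.55 and 0.54), LCN2 (0.38 and 0.54), KRT23, CRABP2 and DEFB1, a beta-defensin (0.38 and 0.40). For S100P it was LCN2 (0.45 and 0.50), PSCA (0.43 and 0.42), SLPI (0.46 and 0.37), LMO7 (0.40 and 0.37) and GCNT3 (0.35 and 0.41).

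Some of these genes also had the time course of the members. SLPI was at 0.181, 8.27, 0.171, 279.96 and 482 CPM in the order of time. DEFB1 had at most 0.0307 CPM in the first 3 libraries, then 95.6 and 179 CPM. LCN2 was at 0.0683, 1.84, 0.0214, 29.1 and 105 CPM. CST6 did not follow this course, at 60.8, 423, 480, 52.0 and 115 CPM, and PSCA, at 9.15, 24.9, 11.7, 24.8 and 19.9 CPM, shared the low 48 h value of S100P.

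The members were set beside epithelial programs by counting the members found in a thinned cell. Cells with 0, 1, 2 and 3 or 4 members numbered 2485, 578, 160 and 99 at 2 months and 3216, 768, 304 and 211 at 4 months, and cells with more members were shallower, with median UMIs from 24203 down to 12489 at 2 months and from 29008 down to 23542 at 4 months. At 2 months nearly all of the 612 large-class cells were in the group with 0 members. After thinning, S100A7 was found in 0.980% of large-class cells, S100A8 in 0.163%, S100A9 in 0.327% and S100P in 0%. The groups were not split by class, so the 2-month values do not separate class from number of members. Levels below leave the members out of the totals. The 20 genes of suprabasal and cornified layers, among them KRT13 and SPRR1B, were at 1129, 1736, 2279 and 7365 CPM at 2 months and at 879.8, 1715, 3845 and 10600.3 CPM at 4 months. SPRR1B, a cornified envelope precursor, was at 350, 462, 418 and 1411 CPM and at 171, 416, 1094 and 2427 CPM. KRT13, a keratin of differentiated esophageal layers, was at 25.2, 55.7, 117 and 921 CPM and at 9.93, 17.3, 47.1 and 122.7 CPM.

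The 5 keratins of wounded and activated epithelium (KRT6A, KRT6B, KRT6C, KRT16 and KRT17) went the same way, at 6127, 10952.5, 11521 and 13837 CPM at 2 months and at 12793, 18281, 24639 and 31992 CPM at 4 months. KRT17 alone was at 3564, 7167, 8399 and 9819 CPM at 2 months and at 8921, 12255, 16108 and 19406 CPM at 4 months. The 11 genes of the basal layer did not, at 1361, 1300.3, 1380 and 1089 CPM at 2 months and at 4544, 3147, 2921 and 2547 CPM at 4 months. KRT5, the basal keratin, was highest in cells with 2 members, at 526, 693, 747 and 499 CPM at 2 months and at 1746, 1831, 1941 and 1342 CPM at 4 months. Median mitochondrial shares of the same groups of cells were between 5.45% and 7.53%. How far depth, the parental class and cell state act on these values was not tested.

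**Figure D4:**
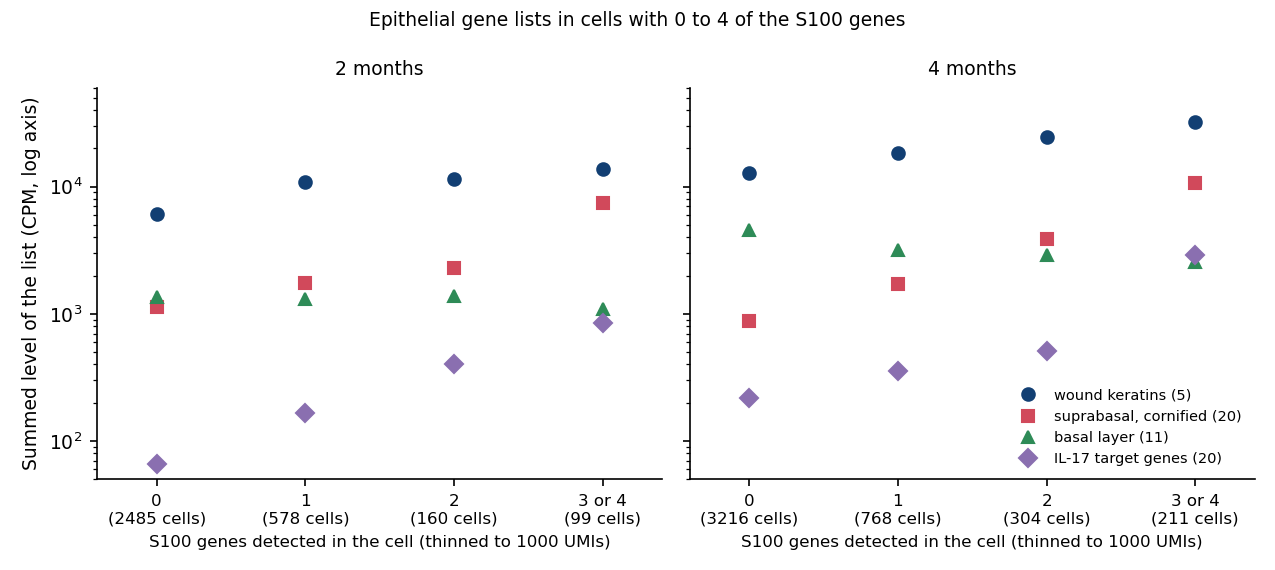
Summed level of 4 gene lists (y axis, CPM without the UMIs of the S100 members, log axis) in cells with 0, 1, 2 and 3 or 4 of the S100 genes detected after thinning to 1000 UMIs (x axis, with the number of cells), at 2 months (left) and 4 months (right). The suprabasal and cornified list is at 1129 and 7365 CPM at the ends of the 2-month axis and at 879.8 and 10600.3 CPM at 4 months, while the basal list is at 1361 and 1089 CPM and at 4544 and 2547 CPM. At 2 months nearly all of the 612 large-class cells are in the group with 0 members.

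Over the libraries, the same lists were mostly higher at 6 h than in culture and differed at the late steps. Of the 20 suprabasal and cornified genes, 12 could be compared from 48 h to 2 months, and 9 were at least 2-fold higher and 0 lower, with a median log2 ratio of 2.27 against -0.05 over all genes. From 2 to 4 months 5 of 15 were higher and 2 lower, with a median of 0.05 against -0.24. For the wound keratins 4 of 4 were higher at 2 months, with a median of 4.66, and 3 of 4 at 4 months, with a median of 1.25. KRT17 was at 0.488, 5.38, 27.2, 4353 and 10139 CPM in the order of time and KRT6A at 5.55, 578, 97.5, 2524 and 3969 CPM, and KRT6A, like S100P, was lower at 48 h than at 6 h. Of the basal genes 1 of 11 was higher and 5 were lower at 2 months, and 6 of 11 were higher at 4 months, with medians of -0.70 and 1.51. Between culture and 6 h, 10 of 10 basal genes were higher (median 3.24, against -0.29 over all genes). So were 4 of 4 wound keratins (5.14) and 7 of 9 suprabasal and cornified genes (2.84), with 1 lower. The 2-month library held 612 large-class cells, the 48 h library 17 and the 4-month library 1. No list was split by class here, and the part of class in these steps was not tested.

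Among the S100 receptors read in the tumor cells, AGER and TLR4 were low and BSG differed little between libraries. AGER, which encodes RAGE, was between 0.927 and 1.52 CPM in all 5 libraries, TLR4 was at most 0.278 CPM with 0 UMIs at 2 months and 2 at 4 months, and its partner LY96 had 0 UMIs in both. BSG (basigin), which binds S100A9, was at 207, 233, 275, 199 and 215 CPM. MYD88, the adaptor of TLR4, was at 0.869, 13.2, 27.6, 6.998 and 13.5 CPM. The 14 receptors and transducers listed also include receptors of cytokines, so their counts do not stand for S100 receptors alone. The 14 genes were not compared within a class, and the large class held 612 of 3322 cells at 2 months. From 48 h to 2 months 9 could be compared, and 1 was higher (ALCAM) and 6 were lower, with a median of -1.32. The 6 lower genes were MYD88 and the cytokine receptor genes IL17RC, IL22RA1, IL6R, IL6ST and TNFRSF1A. From 2 to 4 months 0 of 7 were higher and 1 was lower (ALCAM), with a median of -0.09, while 3.03% of all genes were higher and 9.38% lower.

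Known target genes of IL-17, the cytokine that raises S100A7, S100A8 and S100A9 in skin, were split at 2 months. At 4 months most of those compared were higher, as S100A7 and S100A8 were. Large-class cells were 612 of 3322 at 2 months, and the IL-17 target genes were not compared within a class. From 48 h to 2 months 2 of 8 of them were at least 2-fold higher (LCN2 and PI3) and 4 were lower, with a median of -1.19, while from 2 to 4 months 10 of 11 were higher and 0 lower, with a median of 1.76. CXCL8, a neutrophil chemokine, was at 0.361, 57.7, 69.3, 21.5 and 45.7 CPM, TNFAIP3 at 1.09, 44.01, 69.1, 7.23 and 21.8 CPM, and CSF2 at 0.278, 43.7, 134, 0.148 and 7.60 CPM. These 3 were thus high at 6 h and 48 h, when S100A7, S100A8 and S100A9 were at or near 0. PI3 went the other way, at 0.00488, 0.0307, 0.0427, 13.4 and 49.7 CPM, and so did LCN2, with the values given above. DEFB4A, CXCL5 and IL19 had at most 7 UMIs in any late library. Over cells, the list was at 65.6, 166, 405 and 845 CPM in 2-month cells with 0, 1, 2 and 3 or 4 members and at 217, 353, 514 and 2916 CPM in 4-month cells, of which LCN2 made up 7.67, 42.5, 168 and 640 CPM and 16.03, 69.4, 280 and 1995 CPM.

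Transcription factors known to act on these genes did not share their time course as a group. Of the 15 listed, 10 of 13 compared were at least 2-fold higher at 6 h, with a median of 2.45, while 17.2% of all genes were. Culture and 6 h also differ in their share of small-class cells, and so does 2 months from 48 h and from 4 months. These factors were not compared within a class. At 2 months 7 of 14 were lower and 2 higher (CEBPA and CEBPD), with a median of -1.003. FOS was at 8.36, 232, 649, 360 and 1275 CPM, JUN at 114, 625, 933, 317 and 560 CPM, KLF4, a factor of epithelial differentiation, at 5.14, 172, 131, 65.8 and 98.6 CPM, and FOSL1 at 17.4, 238, 168, 17.4 and 28.8 CPM. CEBPA was at 3.74, 2.37, 3.21, 9.21 and 12.7 CPM and CEBPD at 21.1, 30.6, 29.9, 68.0 and 117.9 CPM. From 2 to 4 months, 2 of 14 were higher (FOS and RELB), with a median of 0.50, while 3.03% of all genes were.

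Several other S100 genes were higher in the lung libraries than in culture, and others were hardly detected. Small-class cells were 1289 of 9059 in culture, 1949 of 1957 at 6 h, 1111 of 1149 at 48 h and 2710 of 3322 at 2 months. These genes were not compared within a class. Whether their differences remain within small-class cells was not tested. Of the 17 listed, 9 of 9 compared were higher at 6 h, with a median of 3.46, and from 48 h to 2 months 1 was higher (S100A4) and 1 lower (S100A3), with a median of -0.59. S100A6 was at 667 CPM in the parental library and between 10558 and 21067 CPM in the lungs, and S100A2 at 95.3, 1714, 568, 877 and 6766 CPM. Between S100A9 and S100A7 on chromosome 1, S100A12 had 10 UMIs at 2 months and 148 at 4 months, S100A7A 1 and 141, and S100A7L2 none in any library. S100A7A at 4 months was thus at 1.12 CPM beside 3109 CPM of S100A7, behind upstream windows that are identical at 96.4% of positions, and because their transcripts share sequence the 141 UMIs may in part be S100A7 reads.

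Neutrophils and macrophages are the other cells known to hold much S100A8 and S100A9, so their markers were read beside the members. Reads were counted on the human genome, while host cells of these lungs are mouse cells. Low counts of human markers therefore cannot show whether mouse cells were present, and their presence was not tested. Of 12 neutrophil markers, which leave out S100A8 and S100A9, FCGR3B and CEACAM8 had 0 UMIs in all 5 libraries, and CSF3R, CXCR2, CXCR1, MPO, ELANE and FPR1 had at most 2 UMIs each at 2 and at 4 months. The whole neutrophil list summed to 0.804 CPM at 2 months and 1.80 CPM at 4 months, of which S100A12 and CAMP were most. By members detected, the list was taken only without S100A12, which is itself an S100 gene and had 148 UMIs at 4 months. In cells with 0, 1, 2 and 3 or 4 members it was then higher with more members at 2 months, at 0.555, 1.03, 1.44 and 2.15 CPM (3 UMIs in the last class). At 4 months it was at 0.633, 0.683, 0.722 and 0 CPM. The 12 macrophage markers summed to between 2.37 and 45.6 CPM, highest at 6 h and lowest at 2 months. Over cells with 0, 1, 2 and 3 or 4 members this list was higher with more members, at 2.02, 2.48, 3.61 and 15.7 CPM at 2 months (22 UMIs in the last class) and at 6.29, 7.88, 15.4 and 23.2 CPM at 4 months (98 UMIs), and its part in the results was not tested. Over the whole 2- and 4-month libraries, CD68 had 136 and 707 UMIs, LYZ 2 and 13, the leukocyte gene PTPRC 0 and 1, and the macrophage genes C1QA and C1QB 0 in both. At 6 h LYZ had 570 UMIs (17.5 CPM) and the neutrophil marker LTF 39 (1.20 CPM), and at 48 h each had 0. The 8 fibroblast markers summed to between 2.37 and 13.6 CPM, the 8 endothelial markers to at most 0.729 CPM, the 6 erythroid markers to at most 0.615 CPM and the 8 lung epithelial markers to at most 20.4 CPM. Leaving out every cell with a UMI of any neutrophil, macrophage, fibroblast, endothelial or erythroid marker kept 2784 cells at 2 months, 3251 at 4 months and 460 of 1149 at 48 h. The calls of the members at all 4 steps remained. S100A7, S100A8 and S100A9 had 0 UMIs at 48 h, which leaving out 48 h cells could not change. Log2 ratios moved both ways: S100P at 6 h was 3.01 in place of 3.92, and at 2 months over 48 h 4.48 in place of 3.22. S100A9 from 2 to 4 months was 0.03 in place of 0.35.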

How the data were processed

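The authors deposited, for each library, counts of UMIs per gene and cell barcode, without normalization and before the quality filter of the study. The submitters' processing notes name Cell Ranger version 3 and GRCh38, and the file headers give matrix software version 3.0.2. How multi-mapped reads were handled is not given in the sources used here.

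UMIs of kept cells were summed per library and divided by the library total (CPM), with exact Poisson intervals, exact conditional intervals for ratios and exact binomial (Clopper-Pearson) intervals for shares. Step ratios are log2 with 1 CPM added, for genes with at least 5 CPM in either library, called at 2-fold. A count of 0 allows up to 3 counts. Thinning drew UMIs without replacement to 1000 or 3000. Correlations used log(1 + UMIs per 10000). The class of a cell follows from whether its UMIs of 8 small-class genes exceed those of 10 large-class genes. Beyond the upper limit on genes, which the study used to select single cells, no doublet caller was run. Python 3.11.15, numpy 2.4.6, scipy 1.17.1, pandas 2.3.3 and matplotlib 3.10.9 were used, and the computations were tested on simulated data.

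The members and gene lists were chosen with earlier results of these data known. Named are the members, for each the 5 genes of highest mean correlation, up to 4 genes of each list with the highest CPM in any library, and S100A7A; any other gene was named after its values were seen. Alternatives changed the filter, the mitochondrial limit, deep cells, the weight of cells, the highest cells, marker-positive cells, the CPM added, the minimum level and the class of cells compared.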

Additional observations from a re-analysis of the deposited data

Results flagged for a closer look

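Barcodes that the quality filter removed entered the comparisons above only in the setting without a filter on cells. UMIs of the members were found in them too, at levels above the removed barcodes of the parental library, which had 0 UMIs of all 4 genes among 534 barcodes. The 2716 barcodes removed at 2 months held S100A7 at 703 CPM, S100A9 at 306 CPM, S100A8 at 239 CPM and S100P at 34.6 CPM. The 1898 removed at 4 months held S100A7 at 859 CPM, S100A8 at 210 CPM (209.5), S100A9 at 196 CPM and S100P at 11.9 CPM. At 6 h the 654 removed barcodes held S100P at 4.78 CPM, from 10 UMIs. At 4 months the removed barcodes were thus lower than the kept cells for all 4 genes, and at 2 months S100A8 and S100P were higher in the removed barcodes (239 against 180 CPM and 34.6 against 32.96 CPM), the S100P difference being within its counting interval (31.0 to 38.6 CPM in the removed barcodes).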

How the results depend on the processing

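The count of members called at each step was the same under every setting tried, except without the 1% of cells highest for the gene: then 0 members in place of 1 were higher from the parental library to 6 h and 0 in place of 1 were lower from 6 h to 48 h, because S100P was under 5 CPM. The comparison of small-class cells in both libraries was chosen after seeing the data. The share of S100A8-positive cells with S100A9 depended on depth. It was 90.2% at 2 months and 78.4% at 4 months from all UMIs, 78.8% and 63.9% at 3000 UMIs, and 70.2% and 54.6% at 1000 UMIs. Log2 ratios lay between 8.47 and 13.2 for S100A7, 5.99 and 10.8 for S100A8, 8.22 and 11.998 for S100A9 and 3.10 and 4.48 for S100P from 48 h to 2 months, and between 1.13 and 2.25, 1.24 and 2.07, -0.11 and 0.42, and -0.99 and -0.23 from 2 to 4 months. For S100P they lay between 3.01 and 5.54 at 6 h and between -2.77 and -2.37 at 48 h. No paired analysis was possible because each timepoint has 1 library and no test was run. Counting error says nothing of other mice or cultures.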
